A study of Mus musculus with 8 samples.

Results

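The genes described here are 5 chemokine genes of the mouse, Cxcl1, Cxcl2, Cxcl5, Ccl2 and Ccl7, chosen by name as chemokines that attract neutrophils and monocytes and that answer to the transcription factor NF-kB. Every probe set annotated to 1 of these genes and to no other gene was taken, which gave 5 probe sets, 1 for each gene, out of 22626 that measured transcripts. Total RNA of mouse embryonic fibroblasts of a C57BL/6 x 129Ola background was measured on 8 one-colour Affymetrix arrays. The cells were wild type (WT, Tbk1+/+ Ikbke+/+), Tbk1-/- Ikbke+/+ (called Tbk1-/- here), Tbk1+/+ Ikbke-/- (called Ikbke-/- here) or Tbk1-/- Ikbke-/- (called the double mutant). Cells of each of the 4 genotypes were taken 4 h after mock transfection or after transfection with B-DNA, a synthetic double-stranded DNA of alternating A and T bases. There was 1 array for each of the 8 combinations, and a ratio of 2 arrays therefore has no replicate check. The labels used here state neither the ages of the embryos nor whether cultures were pooled. Signals below are the deposited values scaled to a common 2% trimmed mean of 500 per array. Values under 122, the floor, were treated as having no order. A ratio with 1 value under the floor was computed against the floor and is a bound, written "at least". Genes were counted as higher or lower between a pair of arrays when the signals differed 2-fold or more and the higher signal reached 244.

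Chemokines are small secreted proteins that draw leukocytes along a concentration gradient. Cxcl1, Cxcl2 and Cxcl5 bind the receptor Cxcr2 on neutrophils, while Ccl2 and Ccl7 bind Ccr2 on monocytes. Fibroblasts release these chemokines when interleukin 1, tumour necrosis factor or microbial products activate NF-kB. Tbk1 and Ikbke are related kinases that act downstream of nucleic acid sensors and phosphorylate interferon regulatory factors, the factors that switch on interferon beta.

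The arrays were first checked against their labels. The brighter Tbk1 probe set read 226 to 390 on the 4 arrays of Tbk1-/- genotypes and 472 to 989 on the other 4, while no array had an Ikbke signal at the floor, so that probe set is no check of the labels. Whether these probe sets lie in the deleted parts is not known here. The brightest probe set of Xist, made by female cells, read 2950.1 to 3766 on the WT and Tbk1-/- arrays and 138 to 209 on the other 4. A dimmer Xist probe set read 412 and 602 on the WT arrays and lay under the floor on the other 6. Eif2s3y, the other sex gene checked, read 1.48 to 3.63 on the WT and Tbk1-/- arrays and 153 to 287 on the other 4. Ikbke genotype and the sex of the cells therefore cannot be told apart. Of 11 fibroblast markers, 10 or 11 reached 244 on each array. Of 19 macrophage markers, 16 reached 244 on the WT mock array, 12 on the WT B-DNA array, and 1 or 2 on each of the other 6. Their summed signal was 22299 on the WT mock array and 6503 on the WT B-DNA array, and lay between 1486 and 1971 on the others, where C1qa read 9.02 to 13.6 and Lyz1 3.10 to 66.3. Macrophages make several of these chemokines, and the part of such cells in the WT values was not tested. Less RNA per cell and fewer cells of a type cannot be told apart in these bulk samples. Of the neutrophil, endothelial and epithelial markers, at most 2 of 8, 1 of 7 and 1 of 6 reached 244 on any array.

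Cxcl1 and Cxcl2 lie side by side on chromosome 5, and both had higher signals after B-DNA in the double mutant. Their upstream sequences are shown because the RefSeq promoter table held no window for the other members. They are the 250 bases before each gene's start from the RefSeq promoter table (GRCm38.p6, plus strand), Cxcl1 at chr5:90890995-90891244 and Cxcl2 at chr5:90903649-90903898. The table held 2 of the 5 members. Capitals mark every match to GGGNNTTTC, the first 9 letters of a form of the kB site that NF-kB binds, on either strand, and to ATAAAA, a form of the TATA box.
Cxcl1: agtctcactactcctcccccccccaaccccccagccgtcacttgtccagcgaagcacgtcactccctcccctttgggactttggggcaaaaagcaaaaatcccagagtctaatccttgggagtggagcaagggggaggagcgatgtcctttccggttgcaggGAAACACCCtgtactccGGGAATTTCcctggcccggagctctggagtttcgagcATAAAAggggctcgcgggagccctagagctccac
Cxcl2: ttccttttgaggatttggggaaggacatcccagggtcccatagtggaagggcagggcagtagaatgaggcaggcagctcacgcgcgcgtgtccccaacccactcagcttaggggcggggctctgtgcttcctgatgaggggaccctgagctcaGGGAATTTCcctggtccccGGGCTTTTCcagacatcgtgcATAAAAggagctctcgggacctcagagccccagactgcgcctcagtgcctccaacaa

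Each of these windows held a pair of GGGNNTTTC matches and 1 ATAAAA. In Cxcl1 the kB-type matches began 88 and 71 bases before the gene's start, the farther one on the opposite strand, and in Cxcl2 they began 97 and 78 bases before it. The longest run common to both windows was gggaatttccctgg, of 14 bases, followed by gcataaaagg, of 10 bases. GGGNNTTTC was found in 3.72% of the 32851 windows of the same length in the table, and GGGAATTTC, which is 1 case of it, in 77 windows (0.234%). Of 24 other chemokine genes with a window, Cxcl3, which lies in the same cluster, and Cxcl9 held GGGAATTTC. ATAAAA was present in 17% of windows. Neither window matched TGANTCA, the AP-1 site (6.75% of windows), or GAAANNGAA, a form of the interferon-stimulated response element (7.13%), on either strand. Cxcl2 held 1 GGGCGG, a site of Sp1 type (32.7% of windows). A match describes the letters and was not tested as a site.

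After B-DNA, 3 of the 5 chemokine genes were counted as higher in WT cells (Ccl7, Cxcl1 and Ccl2), none in Tbk1-/- cells, 2 in Ikbke-/- cells (Ccl7 and Ccl2) and 4 in the double mutant (Cxcl1, Cxcl2, Ccl7 and Ccl2). None of the 5 was counted as lower in any genotype, except under some settings. Those were no further scaling and a 1.5-fold threshold (Cxcl1 and Cxcl2 in Ikbke-/- cells), and a floor at the 20th percentile (Cxcl5). With that floor the log2 ratio of Cxcl5 was -1.98 in Ikbke-/- cells and, as a bound, -1.04 or lower in Tbk1-/- cells. Of the 9626 genes tested, 3.27% were counted as higher in WT cells, 0.291% in Tbk1-/- cells, 3.55% in Ikbke-/- cells and 0.54% in the double mutant, and 1.89%, 0.405%, 1.64% and 0.748% as lower. The median log2 ratio of the 5 genes was 1.24 in WT, 0.00 in Tbk1-/-, -0.57 in Ikbke-/- and 1.78 in double mutant cells. For all tested genes it was 0.00 in each pair. The floor set the Tbk1-/- median, from genes with both signals under it, and the Ikbke-/- median, which was the bound of Cxcl5. In the double mutant 10 genes had a ratio of 3-fold or more with the higher signal at 244 or more. They were Cxcl1, Cxcl2, Ccl7, Irf1, Zfp36, Serf1, Nme6, Mfap4, Rrad and Zmat5, the last 3 named after their values were seen. The split between higher and lower calls moved with the scaling, which shifted the median of genes above the floor on all arrays from -0.08 to -0.48 in WT cells, from -0.11 to -0.34 in Ikbke-/- cells, from 0.04 to -0.14 in Tbk1-/- cells and from 0.02 to 0.20 in the double mutant. In WT cells 315 genes were higher and 182 lower, against 178 and 726 without further scaling. These counts were 28 and 39 against 22 and 105 in Tbk1-/- cells, and 342 and 158 against 271 and 424 in Ikbke-/- cells. In the double mutant they were 52 and 72 against 117 and 18, or 60 and 52 when scaled to the median.

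**Figure D1:**
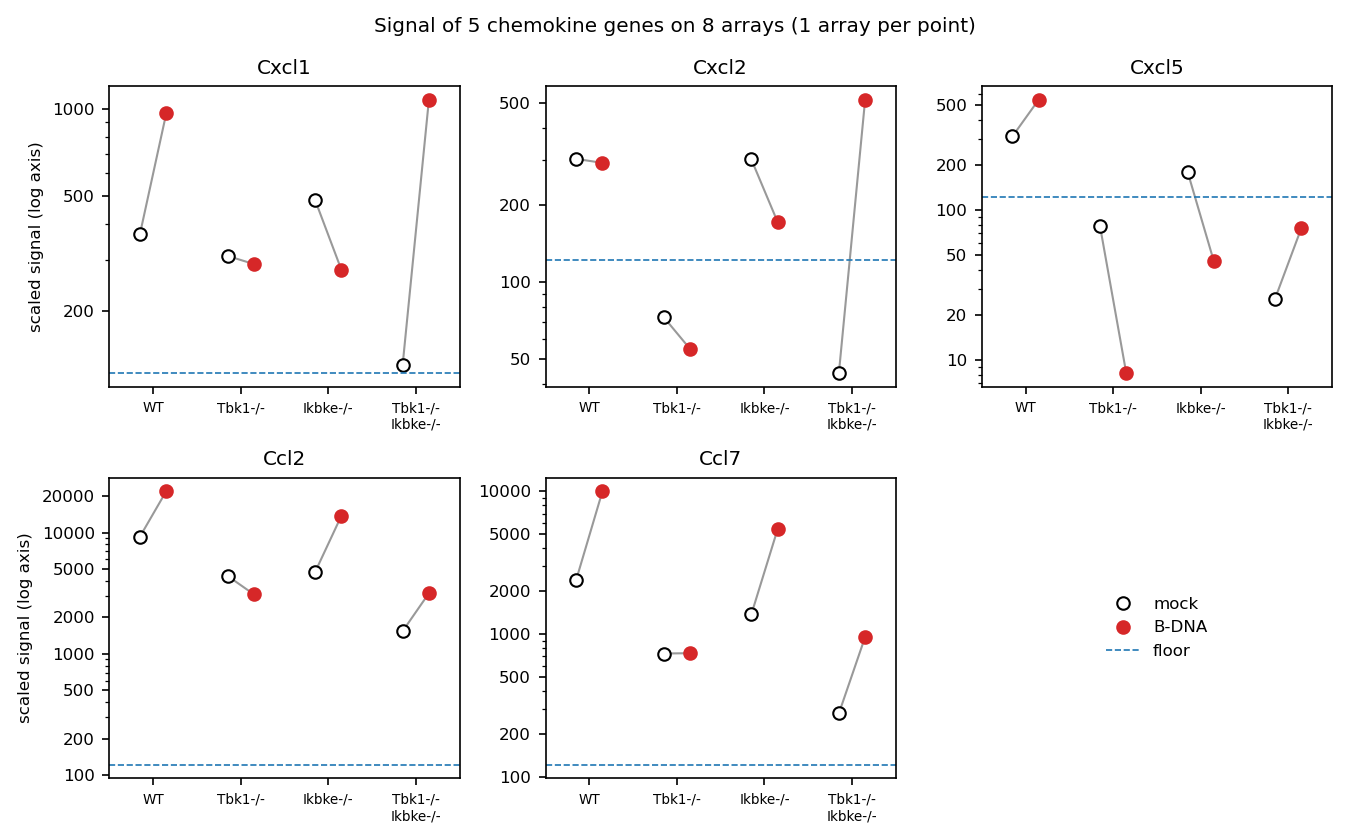
Scaled signal (log axis) of each of the 5 genes on the 8 arrays, with open circles for mock and red circles for B-DNA, joined within a genotype. The dashed line is the floor of 122, under which signals have no order. The double mutant has the lowest mock signal of Cxcl1, Ccl2 and Ccl7 and, for Cxcl1, the highest signal after B-DNA.

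Cxcl1, known as KC and first described as a gene that growth factors induce in fibroblasts, was above the floor on all 8 arrays. Its signal was 370.5 on the mock array and 967 on the B-DNA array of WT cells, and in Tbk1-/- cells 311 and 291. The signals were 485 and 278 in Ikbke-/- cells, and 130.5 and 1078 in the double mutant. The double mutant thus held both the lowest and the highest Cxcl1 signal of the series, with an 8.26-fold difference between them (log2 ratio 3.05). The WT log2 ratio was 1.38, that of Tbk1-/- cells -0.09 and that of Ikbke-/- cells -0.80. Without further scaling the WT ratio lay under 2-fold (0.98) and that of Ikbke-/- cells past it (-1.03). The mock array of the double mutant lay just above the floor, and with a floor of 191 in place of 122 the log2 ratio was at least 2.50. The B-DNA signals of WT cells and of the double mutant differed by 0.16 on the log2 scale, while those of the single mutants were 3.32-fold and 3.47-fold under the WT signal.

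Cxcl2, or MIP-2, a neutrophil attractant made by macrophages and by stimulated fibroblasts, reached the floor on 5 arrays. It read 303 and 292 in WT cells, mock before B-DNA, and 301 and 172 in Ikbke-/- cells. It lay under the floor on both Tbk1-/- arrays, at 72.7 and 54.7. In the double mutant it read 44.0 on the mock array and 516 on the B-DNA array, at least 4.22-fold higher, and the latter was its highest signal in the series. The WT log2 ratio was -0.05 and that of Ikbke-/- cells -0.81, so that Cxcl2 was counted in 1 genotype. Without further scaling the Ikbke-/- ratio was -1.04 and was counted as lower.

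Cxcl5, which also acts through Cxcr2 and is known as LIX, reached the floor on 3 arrays, the fewest of the 5. It read 311 and 546 in WT cells (log2 ratio 0.81) and 181 on the Ikbke-/- mock array. The signals of 45.8 on the Ikbke-/- B-DNA array, 78.4 and 8.20 on the Tbk1-/- arrays, and 25.7 and 76.0 on those of the double mutant were all under the floor. No pair was counted, and in the Tbk1-/- cells and the double mutant there was no measured ratio. The 2 highest Cxcl5 signals were those of the WT arrays, which also had the 2 highest sums of macrophage markers. Between these arrays, Cxcl5 was higher and the sum lower after B-DNA, and the part of macrophages was not tested.

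Ccl2, or MCP-1, the main ligand of Ccr2 on inflammatory monocytes, was above the floor on all arrays. Its signal was 9264 on the mock array and 21927 on the B-DNA array of WT cells (log2 ratio 1.24), and 4724 and 13721 in Ikbke-/- cells (1.54). In Tbk1-/- cells it was 4393 and 3096 (-0.50), and in the double mutant 1538 and 3161 (1.04). The B-DNA signals of the double mutant and of Tbk1-/- cells were thus close, while the mock signal of the double mutant was 2.86-fold lower. The highest Ccl2 signals were those of the 2 Tbk1+/+ B-DNA arrays. The WT ratio lay under 2-fold (0.84) without further scaling, and those of Ikbke-/- cells and of the double mutant stayed above it under every scaling run.

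Ccl7, or MCP-3, the neighbour of Ccl2 on chromosome 11 and a ligand of Ccr2 and other CC receptors, had the largest ratio of the 5 in WT and in Ikbke-/- cells. It read 2408 and 10052 in WT cells (log2 ratio 2.06) and 1377 and 5433 in Ikbke-/- cells (1.98). It read 733 and 737 in Tbk1-/- cells (0.01) and 279 and 958 in the double mutant (1.78). The Tbk1-/- signals were nearly equal. The sign of their ratio turned in 4 of 9 alternatives, among them no further scaling (-0.17) and scaling to the median (-0.01). Over the 8 arrays the range was 36.0-fold, from the mock array of the double mutant to the B-DNA array of WT cells.

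**Figure D2:**
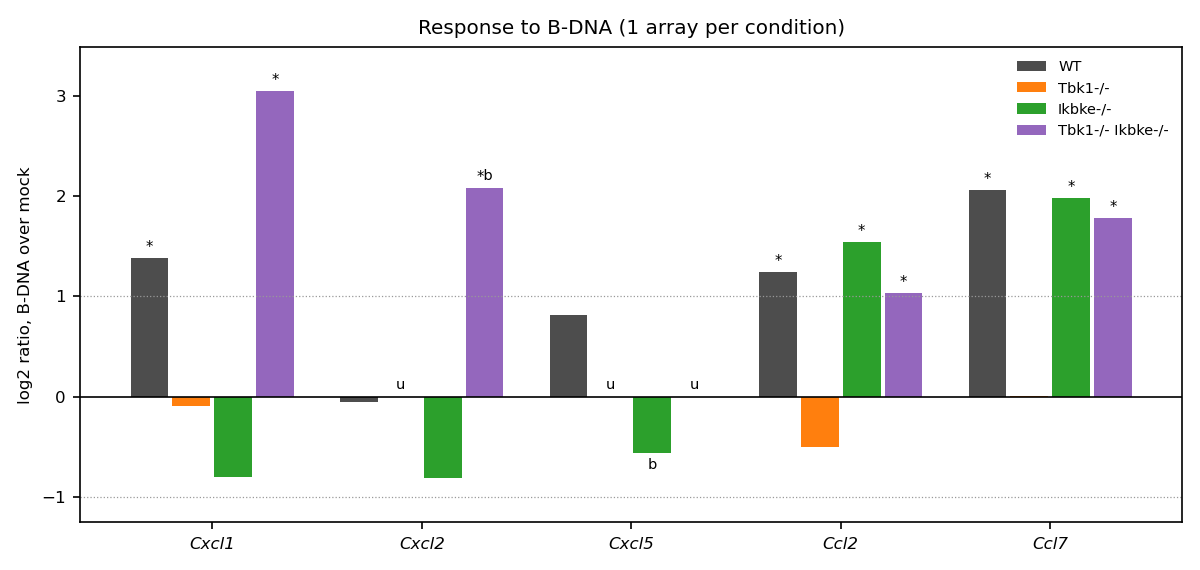
Log2 ratio of B-DNA over mock for each gene in the 4 genotypes, 1 array per condition and no error bar. An asterisk marks a ratio counted as 2-fold or more, b a ratio limited by the floor, and u a pair with both signals under the floor. The double mutant bars of Cxcl1 and Cxcl2, at 3.05 and 2.08, are the tallest of those genes, while the Ccl2 and Ccl7 bars of WT, Ikbke-/- and double mutant cells lie between 1.04 and 2.06.

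On the mock arrays, the double mutant was under WT cells for all 5 genes, Tbk1-/- cells for 4 and Ikbke-/- cells for none by the 2-fold rule. The share of all tested genes counted as lower in the same comparisons was 5.51%, 3.33% and 3.13%. Without further scaling, 2257 genes in place of 530 were counted as lower in the double mutant. The counts were 310 in place of 321 in Tbk1-/- cells and 349 in place of 301 in Ikbke-/- cells. In the double mutant the mock signal was 8.63-fold lower for Ccl7, 6.02-fold for Ccl2 and 2.84-fold for Cxcl1, and at least 2.48-fold and 2.55-fold lower for Cxcl2 and Cxcl5. In Tbk1-/- cells it was 3.28-fold lower for Ccl7, 2.11-fold for Ccl2, and at least 2.48-fold and 2.55-fold for Cxcl2 and Cxcl5, while Cxcl1 had a log2 ratio of -0.25. With a floor of 191, Cxcl2 and Cxcl5 were no longer counted in either mutant, nor Cxcl1 in the double mutant. The higher signal then had to reach 2 times 191. The WT mock signals of Cxcl2, Cxcl5 and Cxcl1 (303, 311 and 370.5) lay under that, so these ratios could not be counted whatever the mutants read. The Ccl2 ratio in Tbk1-/- cells, -1.08, lay under 2-fold without further scaling (-0.97) and when scaled to the median (-0.94). In Ikbke-/- cells the log2 ratios ran from -0.97 for Ccl2 to 0.39 for Cxcl1. These comparisons share the WT mock array, which had the highest signal of macrophage markers. Other lists had low double mutant mock signals too. Against WT cells 16 of 21 immediate early genes were counted as lower (median log2 ratio -1.34), as were 10 of the 28 other NF-kB targets above the floor (-0.56) and 4 of 21 other chemokine genes (0.00). Immediate early genes were also lower in 16 of 21 cases against Ikbke-/- cells and in 17 against Tbk1-/- cells. Nothing here shows the low mock level to be particular to the 5 genes.

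The mock arrays of the mutants were therefore also compared with each other, where the macrophage sum lay between 1486 and 1760. Ikbke-/- cells and the double mutant both had low Xist. The double mutant was 4.94-fold under Ikbke-/- cells for Ccl7, 3.72-fold for Cxcl1 and 3.07-fold for Ccl2, and at least 2.47-fold for Cxcl2, so 4 of 5 genes were counted as lower (6.53% of all tested genes). Against Tbk1-/- cells it was 2.86-fold lower for Ccl2, 2.63-fold for Ccl7 and 2.38-fold for Cxcl1, while Cxcl2 and Cxcl5 were under the floor on both arrays (6.78% of all genes were counted as lower). With a floor of 191 the ratio of Cxcl2 to Ikbke-/- cells and that of Cxcl1 to Tbk1-/- cells were no longer counted. The higher signals there, 301 and 311, lay under 2 times that floor, so these ratios could not be counted. The order of the mock signals was the same for Ccl2 and Ccl7, with WT highest, then Ikbke-/-, Tbk1-/- and the double mutant, although the Ikbke-/- and Tbk1-/- signals of Ccl2, 4724 and 4393, were close. For Cxcl1 the order was Ikbke-/-, WT, Tbk1-/- and the double mutant. The double mutant mock array was the dimmest as deposited, with a trimmed mean of 140 and a scaling factor of 3.58, against 1.96 to 2.11 for the other mock arrays. Without further scaling, genes counted as lower on it were 2262 in place of 629 against Ikbke-/- cells. Against Tbk1-/- cells they were 2674 in place of 653.

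**Figure D3:**
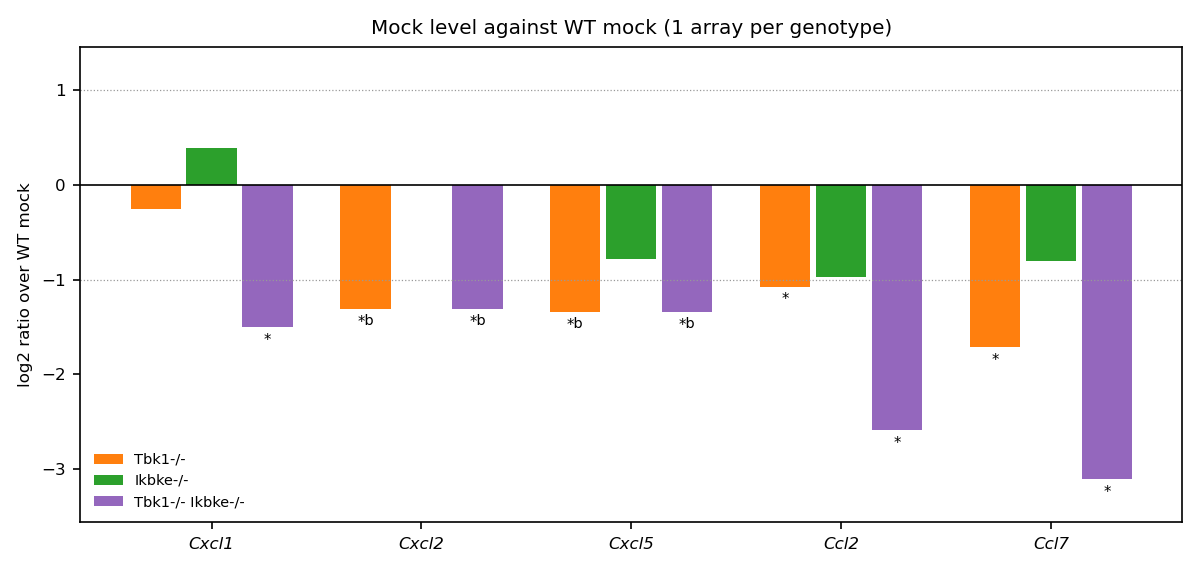
Log2 ratio of each mutant's mock array over the WT mock array, 1 array per genotype and no error bar, with marks as for the response to B-DNA. All 5 double mutant bars lie at -1.31 or lower, and the Ikbke-/- bars lie between -0.97 and 0.39.

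On the B-DNA arrays, Tbk1-/- cells were under WT cells for all 5 genes (5.8% of all tested genes were counted as lower), by 13.6-fold for Ccl7 and 7.08-fold for Ccl2. The double mutant was under WT cells for 3 (6.78% of all), namely Ccl7 (10.5-fold), Ccl2 (6.94-fold) and Cxcl5 (at least 4.47-fold). Cxcl1 and Cxcl2 had log2 ratios of 0.16 and 0.82 there. Ikbke-/- cells were under WT cells for 2 (3.58% of all), Cxcl1 (3.47-fold) and Cxcl5 (at least 4.47-fold).

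The dependence of the response on each kinase was tested in 1 fit over all 8 arrays with limma (Benjamini-Hochberg over 9626 genes), and none of the 5 genes passed. On simulated data with 1 setting of the spread, differences of log2 size 1 were called in 3 of 50 genes for Tbk1 and 13 of 50 for Ikbke. With another setting they were called in 44 and 40 of 50. The lack of calls therefore does not show a lack of dependence. For Tbk1, 2.07% of all tested genes passed, and 3 of the 5 genes had an unadjusted p under 0.05 where 16.5% of all genes did. Ccl2 and Ccl7 had estimates below 0, and Cxcl1 and Cxcl2 above 0. Averaged over the pairs without Tbk1, the response was lower for Ccl2 (limma difference -1.12, SE 0.34, adjusted p = 0.18). That of Ccl7 was lower too (-1.13, SE 0.43, limma adjusted p = 0.27). The log2 ratios were -0.50 in Tbk1-/- against 1.24 in WT cells for Ccl2, and 0.01 against 2.06 for Ccl7. In the double mutant and Ikbke-/- cells they were closer, at 1.04 against 1.54 and 1.78 against 1.98. Averaged in the same way, the response was higher for Cxcl1 (1.19, SE 1.08, limma adjusted p = 0.63). It was also higher for Cxcl2 (1.47, SE 0.61, limma adjusted p = 0.30), with 3 values set to the floor. The Cxcl1 estimate averaged differences of opposite sign. The log2 ratio of Cxcl1 was -0.09 in Tbk1-/- against 1.38 in WT cells, and 3.05 in the double mutant against -0.80 in Ikbke-/- cells. For Cxcl2 both Tbk1-/- signals lay under the floor, and the double mutant had at least 2.08 against -0.81 in Ikbke-/- cells. Cxcl5 had a difference of -0.12 (SE 0.36, limma adjusted p = 0.91) with 5 values set to the floor. The error of this fit is the part of the response that the kinases do not add up to, with 1 residual degree of freedom.

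For Ikbke no gene of the 9626 passed with limma, and 4.52% had an unadjusted p under 0.05. The estimates were 0.92 for Ccl2 (SE 0.34), 0.85 for Ccl7 (SE 0.43), 0.66 for Cxcl2 (SE 0.61), 0.48 for Cxcl1 (SE 1.08) and -0.69 for Cxcl5 (SE 0.36), and the lowest limma adjusted p was 0.98. The estimate of Cxcl1 averaged 2 values of opposite sign. The log2 ratio of the double mutant exceeded that of Tbk1-/- cells by 3.14, and the ratio of Ikbke-/- cells fell short of that of WT cells, at a difference of -2.18. For Ccl7 the same differences were 1.77 and -0.08, for Ccl2 1.54 and 0.30, and for Cxcl2 2.08 and -0.76. Whether loss of Ikbke acts differently with and without Tbk1 cannot be tested, as this difference is the error term of the fit.

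**Figure D4:**
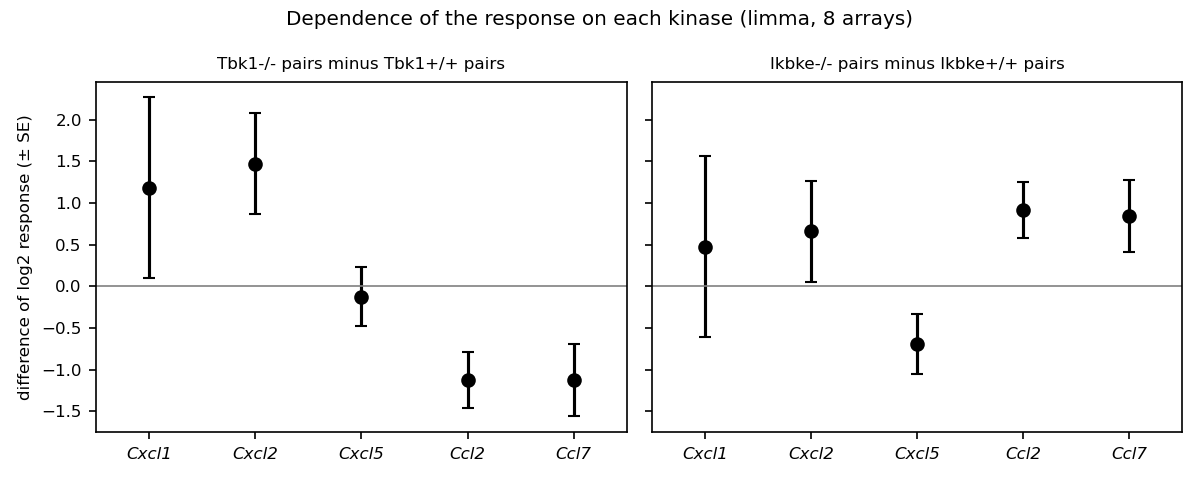
Estimated difference of the log2 response between pairs without and with Tbk1 (left) and Ikbke (right) for each gene, with the standard error from limma over 8 arrays. Ccl2 and Ccl7 lie at -1.12 and -1.13 for Tbk1, and the error bar of Cxcl1, 1.08 to each side, is the widest.

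Averaged over the 4 genotypes, with genotype as a block, the response to B-DNA was 1.46 for Ccl7 (SE 0.38, limma adjusted p = 0.61), the only 1 of the 5 with an unadjusted p under 0.05. It was 0.88 for Cxcl1 (SE 0.66), 0.83 for Ccl2 (SE 0.36), 0.30 for Cxcl2 (SE 0.48) and 0.06 for Cxcl5 (SE 0.23), with limma adjusted p from 0.62 to 0.95. No gene of the series passed this limma test, and 7.91% had an unadjusted p under 0.05. The error of this fit is the difference in response between genotypes, with 3 residual degrees of freedom. A response that depends on genotype thus adds to the error, so the absence of calls does not show a lack of response. Without the double mutant pair the estimate was 0.16 for Cxcl1 and -0.29 for Cxcl2. Without the WT pair that of Cxcl5 was -0.19. On the mock arrays, limma with both kinases as additive terms called no gene for either. On simulated data this fit also made no calls, so their absence here carries no information. Unadjusted p lay under 0.05 for 3 of the 5 genes with Tbk1 (2.39% of all) and for 2 with Ikbke (2.91%). The 3 were Ccl7, Ccl2 and Cxcl2. For Cxcl2 both mock signals without Tbk1 were set to the floor, so its error (SE 0.11) leaves out any difference between them. The same held for the mock signals of Cxcl5. The Tbk1 estimates were all below 0, from -2.01 for Ccl7 (SE 0.24) to -0.96 for Cxcl5 (SE 0.30).

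The receptors of these chemokines were dim. Cxcr2 and Ccr2 lay under the floor on all 8 arrays, as did Ccr1 and Ccr3. Ackr1, a chemokine scavenger of red cells and venules, read 158 to 299 and was not counted after B-DNA in any genotype. Of 8 receptor genes on the array, Ccrl2, a receptor-like protein that binds chemerin, was the 1 counted after B-DNA. It went from 182 to 856 in WT cells, and from under the floor to 807 in Ikbke-/- cells. Averaged over the pairs without Tbk1, its ratio was lower (limma difference -1.85, SE 0.29, adjusted p = 0.033, with values under the floor).

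Among 28 other chemokine genes on the array, 6 were counted as higher in WT cells, 1 in Tbk1-/- cells (Cxcl10, 1.02), 4 in Ikbke-/- cells and none in the double mutant. Ccl5 was counted as lower in Tbk1-/- cells (-1.40), and Cxcl16 in the double mutant (-1.09). The median log2 ratio of the 21 above the floor was 0.44, 0.00, 0.16 and 0.00 in the same order. Cxcl10, a T cell attractant turned on by interferons, read 16.4 and 108 in the double mutant, both under the floor, against 440 and 16600 in WT cells. Ccl5, another such attractant, read 665 and 545 there, against 841 and 15819. The dependence on Tbk1 passed for 3 of the 21, Ccl5 (-5.11), Cxcl10 (-4.88) and Cxcl11 (-4.00), with limma adjusted p from 9.07e-04 to 0.0021. Of 25 interferon-stimulated genes, all 25 were counted as higher in WT and in Ikbke-/- cells and none as higher in Tbk1-/- cells or the double mutant, and all 25 passed for Tbk1. Whether the dependence of the 5 chemokine genes differs from that of these genes was not tested.

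Other targets of NF-kB were taken from a list of 32, of which 28 were above the floor. In the double mutant 2 were counted as higher. Icam1, the adhesion molecule that holds leukocytes to endothelium, went from under the floor (68.3) to 361, and Irf1, an interferon regulatory factor gene, from 1569 to 4743 (1.60). Cebpd, a transcription factor of the acute phase, was counted as lower (-1.04). Irf1 was also counted in WT (2.12) and in Ikbke-/- cells (1.64) and read 1005 and 1044 in Tbk1-/- cells, the same set of genotypes as Ccl2 and Ccl7. Icam1 was counted in the double mutant alone among the 4 pairs. Its WT ratio was 0.81 and that of Ikbke-/- cells -0.05. In WT cells 5 of the 32 were counted as higher and 1 as lower, and in Ikbke-/- cells 5 and none. Il6, a cytokine of the acute phase, had a log2 ratio of 2.43 in WT cells and of at least 2.66 in Ikbke-/- cells, and read 86.9 and 155 in the double mutant. Il6 (limma difference -2.61, adjusted p = 0.0061) and the collagenase gene Mmp13 (-1.74, limma adjusted p = 0.046) passed for Tbk1. The median log2 ratio of the 28 was 0.35 in WT cells, 0.00 in Tbk1-/- cells, -0.01 in Ikbke-/- cells and 0.13 in the double mutant.

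None of 15 genes of NF-kB subunits, inhibitors and kinases on the array was counted between the mock and B-DNA arrays of any genotype. On the mock arrays, 2 were lower in the double mutant than in WT cells and 5 lower than in Tbk1-/- cells. Nfkbia, the inhibitor that NF-kB itself induces, read 11017 and 12591 in WT cells, 12408 and 9799 in Tbk1-/- cells, 8979 and 11949 in Ikbke-/- cells, and 6199 and 11073 in the double mutant. Its ratio in the double mutant, 0.84, was the largest of the 4. Nfkbie, a further inhibitor, had ratios of 0.42, -0.34, 0.70 and 0.70, and Nfkbiz, a nuclear cofactor, 0.99, -0.07, 0.32 and -0.60.

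Of 8 regulators of mRNA decay, Zfp36, which binds AU-rich elements of cytokine mRNAs and speeds their decay, was the 1 counted after B-DNA. It went from 614 to 1856 in the double mutant (1.60) and from 1384 to 3151 in WT cells (1.19), and had ratios of 0.67 in Ikbke-/- and -0.68 in Tbk1-/- cells. Of 21 immediate early genes, which serum and stress switch on without new protein synthesis, Atf3 (1.37) and Myc (1.10) were counted as higher after B-DNA in the double mutant. In the other genotypes 2 or 3 of the 21 were counted as lower, Fos in each of them (-1.02 in WT, -1.40 in Tbk1-/- and -1.15 in Ikbke-/- cells), against 0.28 in the double mutant.

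Of the inducing cytokines, which stand on the target list, Il1b read 141 to 206, above the floor on all 8 arrays, and was not counted after B-DNA in any genotype. Il1a was under the floor on all arrays, and Tnf read 168 on the WT B-DNA array and lay under the floor on the other 7. Il1r1, the receptor of interleukin 1, was counted as lower in WT (-1.20), Ikbke-/- (-2.00) and double mutant cells (-1.03), the genotypes in which Ccl2 and Ccl7 were counted as higher. Tlr2, a receptor of bacterial lipoproteins, showed log2 ratios of 2.30 (WT), 2.51 (Ikbke-/-), 0.14 in Tbk1-/- cells and 0.92 in the double mutant. Of the 16 genes of this list on the array, Tlr3 (limma difference -4.24), Myd88 (-2.09) and Tlr2 (-1.88) had lower ratios, averaged over the pairs without Tbk1. Pdgfra, a receptor of platelet-derived growth factor, had a higher ratio, averaged in the same way. The limma adjusted p of these genes ran from 6.00e-04 to 0.042.

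The members lie in 2 chemokine clusters. On chromosome 5, the RefSeq table (GRCm38.p6) placed Cxcl5, Ppbp, Pf4, Cxcl3, Cxcl15, Cxcl1 and Cxcl2 in that order, and no value was assigned to Cxcl3 here. Between Cxcl5 and Cxcl1 no neighbour was counted after B-DNA in any genotype, although levels differed between genotypes. Ppbp and Pf4, chemokines of platelets, had ratios from -0.04 to 0.31 and from -0.90 to 0.20. Cxcl15, or lungkine, had ratios from 0.19 to 0.47 where it was above the floor. Ppbp read 1034 and 1278 in Tbk1-/- cells and 151 to 155 on the WT arrays, and Cxcl15 1299 and 1484 in the double mutant and 313 and 419 in WT cells. Beyond Cxcl2, the growth factor gene Ereg was counted as lower in Tbk1-/- (-1.23) and Ikbke-/- cells (-1.17), and Btc, which binds the same receptor, as higher in WT (1.58) and Ikbke-/- cells (a log2 ratio of at least 2.48). Neither was counted after B-DNA in the double mutant.

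On chromosome 11 the order was Ccl2, Ccl7, Ccl11, Ccl12, Ccl8 and Ccl1. Ccl8, or MCP-2, went from 240.1 to 836 in WT cells (1.80) and had ratios from 0.22 to 0.44 in the other genotypes. Ccl12, or MCP-5, went from under the floor to 284 in WT cells and lay under it on the other 7 arrays. Both were thus counted in WT cells and in no other genotype. The WT arrays had the high macrophage markers, whose summed signal was lower after B-DNA (6503 against 22299). The part of macrophages in the Ccl8 and Ccl12 signals was not tested. Ccl11, or eotaxin, was under the floor on all 8 arrays, and Ccl1 was not counted after B-DNA in any genotype.

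**Figure D5:**
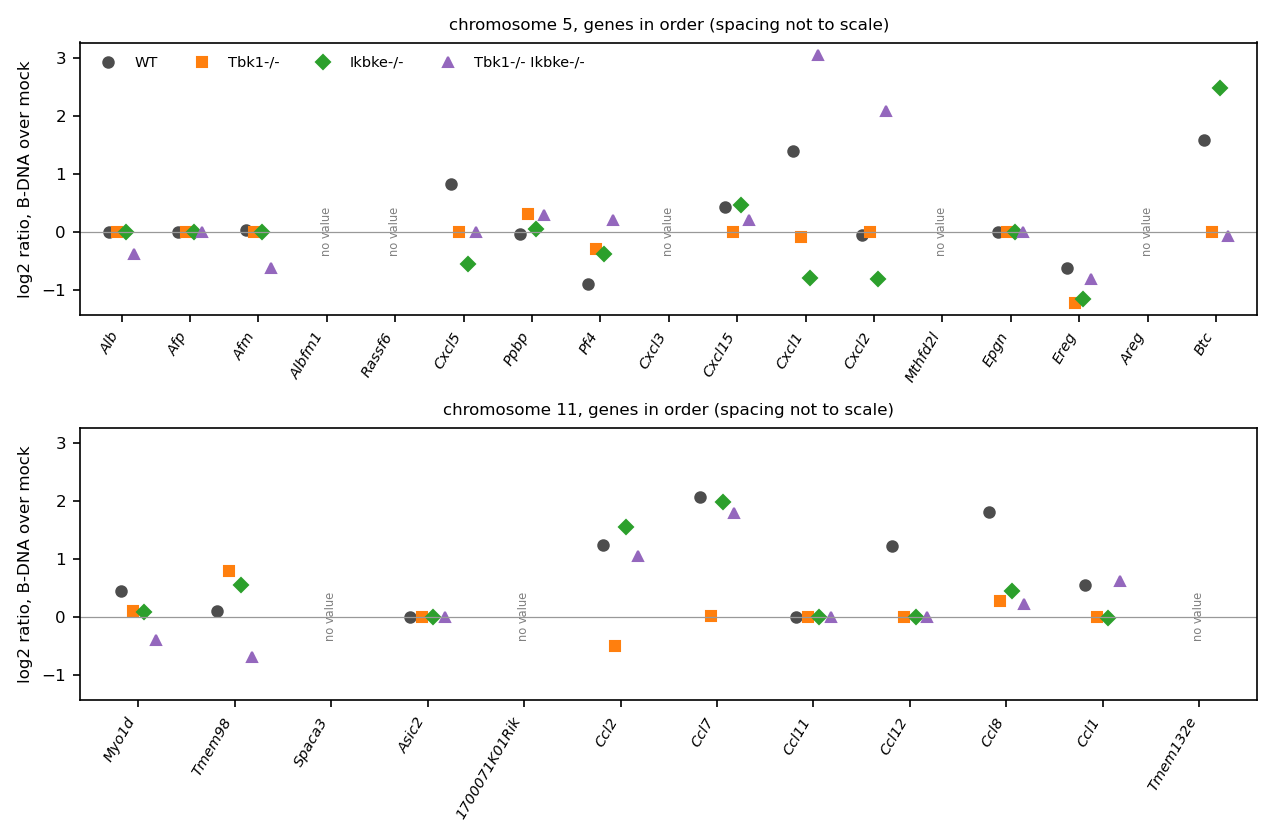
Log2 ratio of B-DNA over mock for the protein-coding genes around the members on chromosomes 5 and 11, in chromosomal order and not to scale, with 1 symbol per genotype. Points at 0 include pairs with both signals under the floor, and "no value" marks genes with no probe set of their own here. The double mutant symbols of Cxcl1 (3.05) and Cxcl2 (2.08) stand above the double mutant symbols of all other genes of the chromosome 5 row.

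Profiles were compared over the 8 arrays as the mean absolute difference of log2 values after centring each gene on its own mean, among 9625 other genes. Ccl2 and Ccl7 were near each other (0.39), each being the second nearest gene of the other. The nearest to Ccl2 was Mmp13 (0.30, with 5 values set to the floor) and the third Il13ra1, a receptor of interleukin 13 (0.40). The nearest to Ccl7 was Tlr2 (0.38) and the third Fas, the death receptor gene (0.43). Cxcl2 was the second nearest gene to Cxcl1 (0.45), between Nme6 (0.41) and Serf1 (0.47), which had high double mutant ratios as well. The double mutant mock signals of Nme6, Cxcl2 and Serf1 (28.3, 44.0 and 108) were under the floor, so these ratios are bounds. Nme6 and Cxcl2 had values set to the floor on other arrays too. The nearest to Cxcl2 were Cox6b2 (0.36), Fmod (0.36) and Lpar1 (0.37), and Cxcl1 ranked 48. The nearest to Cxcl5 were Hey1, Gm6958 and Tfap2a (0.17 to 0.19), whose signals, like those of Cxcl5, were above 244 on the WT arrays and mostly under the floor elsewhere. Cxcl1 and Ccl7 lay 1.15 apart, and Ccl7 ranked 9364 among the genes compared with Cxcl1. The distances describe these arrays and carry no test.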

How the data were processed

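The authors deposited linear intensities, 1 per probe set, from Microarray Suite 5.0 (MAS5 per the submitters' processing notes). GeneSpring is named too, without a role. Their scaling target was not stated. The array type in the series' description differs from that whose annotation matched the probe sets. Of 22690 probe sets, 64 controls were left out. Of the rest, 20380 had 1 symbol, 691 several and 1555 none in the table used here, and symbols were updated through the GRCm38.p6 RefSeq table (20351 matched). Intensities were scaled (factors 1.96 to 3.58) and floored at the 40th percentile, 122, before log2. The probe set with the highest mean stood for each of 12393 genes, and 9626 that reached the floor on 1 or more arrays were tested with limma 3.58.1 in R 4.3.3 (lmFit, eBayes, 2-sided, Benjamini-Hochberg at 0.05), checked on simulated data. Tests used all 8 arrays with genotype as a block, or the 4 mock arrays. No label tells whether cultures were separate, so the p-values reflect the spread of these 8 arrays alone, and their number limits the precision. That spread may be technical, and in the average response it holds the differences between genotypes. The members and lists were chosen with earlier results of these data known. Named were all members, list genes with the largest ratios or counted in the double mutant, chromosomal neighbours and the 3 nearest profiles. Genes outside this rule (Ccr1, Ccr3, Tnf, Il1a, Il1b and those said to be) were added afterwards. Alternatives covered scaling, floor, probe sets, filter, fold threshold, prior and omitted pairs.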

Additional observations from a re-analysis of the deposited data

Results flagged for a closer look

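Cxcl1 and Cxcl2 had ratios of opposite sign in different genotypes. Cxcl1 was counted as higher in WT cells and in the double mutant, while its log2 ratio in Ikbke-/- cells was -0.80. Cxcl2 was counted as higher in the double mutant, while its log2 ratio in Ikbke-/- cells was -0.81. With 1 array per condition the difference was not tested. In Ikbke-/- cells 3 of the 5 genes had negative ratios, 2 of them Cxcl1 and Cxcl2.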

How the results depend on the processing

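With 1 array per condition, signal over background and the floor limit what can be read, and Cxcl2 and Cxcl5 most. The labels carry no replicate numbers to use as a replicate block. Mock and B-DNA arrays were paired by genotype instead, and without that block the average response also passed for 0 of the 5 genes. The alternatives on comparisons between genotypes were added after seeing the data. No member turned its direction where it was counted, and none passed limma under any alternative (lowest adjusted p 0.0506, for Ccl7 and Tbk1 on the mock arrays with 50 added, and 0.0735 for the responses, for Ccl2 and Tbk1). Of the 5 genes, the number counted after B-DNA in WT cells went from 3 to 1 without further scaling or at 3-fold. In Tbk1-/- cells it went from 0 to 1 with a floor at the 20th percentile. In Ikbke-/- cells it went from 2 to 4 without further scaling or at 1.5-fold, and to 1 at 3-fold. On mock arrays against WT it went from 4 to 2 in Tbk1-/- cells and from 5 to 2 in the double mutant with a floor at the 50th percentile, and to 1 and 2 at 3-fold. With the floor at the 50th percentile the WT mock signals of the genes lost were too low for a count. With 50 added in place of a floor the number stayed at 4 and 5. In Ikbke-/- cells it went from 0 to 1 with quantile normalization and to 3 at 1.5-fold. On B-DNA arrays it went from 2 to 5 in Ikbke-/- cells at 1.5-fold, and for the mock arrays of the double mutant against Tbk1-/- from 3 to 0 at 3-fold. Over all genes, limma called 199 for Tbk1, against 120 without further scaling, 48 with a floor at the 20th percentile and 0 with no filter on low values. On mock arrays it called 0 for either kinase, against 37 for Tbk1 and 32 for Ikbke with 50 added in place of a floor, and 5 and 12 with genes at the floor or more on all arrays. Genes counted as higher and lower were 768 and 445 in WT cells and 299 and 417 in the double mutant with a floor at the 20th percentile, 638 and 695 and 384 and 404 at 1.5-fold, and 144 and 27 and 10 and 2 at 3-fold. The cause of these shifts was not tested.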
